A study of Mus musculus with 463 samples.

Results

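Liver plasma protein genes encode the proteins that hepatocytes secrete into blood. The 42 genes examined here were taken by symbol from the count tables of the bulk and single-cell libraries, which hold 40824 genes, and all 42 symbols were present. They comprise 4 albumin family genes, 9 apolipoprotein genes, 7 carrier genes, 9 genes of coagulation and fibrinolysis, 6 serpins, 4 heavy chains of the inter-alpha-trypsin inhibitor, 2 fetuins and complement C3. The study followed the ventral and the dorsal pancreas of the mouse embryo. At E10.5 both the ventral and the dorsal Pdx1-expression region were sorted by the Pdx1-GFP transgene, whose fluorescence marks pancreatic progenitors and neighbouring foregut cells, into Pdx1-high, Pdx1-low and all Pdx1+ cells. Ventral Pdx1-low cells were also split by Liv2, a surface antigen of early hepatoblasts, into Liv2+ and Liv2- cells, and Liv2+ cells were sorted from the E10.5 liver bud. Pdx1+ cells of both sides were also taken at E9.5. The remaining single cells were 4 E15.5 liver cells that carried the tdTomato mark of a ROSA26 reporter opened by Pdx1-Cre, which labels cells with Pdx1 activity in their own past or in that of their ancestors. Bulk libraries held Pdx1-GFP+ cells at E10.5, Ngn3-GFP-high and Ngn3-GFP-low cells at E14.5, in which the transgene reports the endocrine progenitor factor Ngn3, and Ins1-RFP+ beta cells at E17.5, each from the ventral and the dorsal side. No treatment is listed for any group. The labels name neither the strain nor the number of embryos behind a library.

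Albumin, alpha-fetoprotein and most other plasma proteins are made by hepatocytes and, in the embryo, by the hepatoblasts of the liver bud, and their transcription depends on HNF1, HNF4, C/EBP and forkhead factors acting together. The liver bud and the ventral pancreas arise from neighbouring ventral foregut endoderm, and the dorsal pancreas from a separate stretch of the gut tube. Several of the proteins are not exclusive to the liver: transthyretin and retinol-binding protein 4, which carry thyroid hormone and retinol, are also made in islets, and apolipoprotein E and vitronectin are made in many tissues.

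The bulk data consisted of 8 groups of 2 libraries with 8779418 to 24551520 reads on genes. The single cells numbered 447 in 12 groups, sequenced by Smart-seq2 to 201191 to 1738015 reads on genes (median 1064163). Cells were labelled with numbered sets, 41 in all. Of the 28 ventral E9.5 cells in set 1, 25 carry labels whose growth protocol does not describe embryos. Counts per cell include them throughout. The reads of the cells of a set were summed, and sets of at least 3 cells served as replicates (37 sets in 11 groups). No label states what a numbered set is, embryo or sorting run, and p-values therefore rest on the set-to-set spread alone, part of which can be technical. The same holds for the bulk libraries. Levels are given as CPM, the count of a gene scaled to a common library total, with TMM factors for libraries and sets and the plain total for individual cells. A gene was counted as detected in a cell at 10 CPM. Levels of different genes are compared only as RPKM, in which the reads of a gene are divided by its length in kilobases and by the reads on genes. Smart-seq2 reads carry no molecular identifiers. Intervals and limits given for cells treat the cells of a group as independent. They cover counting error only and leave out the spread between sets.

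In the E10.5 liver bud, all but 8 of the 42 genes were detected in at least 50% of the 23 cells. All 23 cells had Alb, which encodes albumin, Afp (alpha-fetoprotein) and the 3 fibrinogen chains Fga, Fgb and Fgg. The 42 genes together took 5.46% of the pooled reads of these cells. Afp stood far above the others at a mean of 12563 RPKM. Apoa2, the second protein of high density lipoprotein, followed at 2563 RPKM, then Rbp4 at 1914, Ambp (the precursor of alpha-1-microglobulin and bikunin) at 1882 and Apoe at 1777 RPKM. Alb itself was at 639 RPKM, below the cortisol-binding Serpina6 (1187 RPKM) and Serpinf2 (alpha-2-antiplasmin, 1132 RPKM). The lowest of the genes common in liver bud cells was F5 (coagulation factor V) at 3.29 RPKM, in 60.9% of cells. Apoa4 and Fetub (fetuin-B) were detected in 0 of 23 cells, a count that leaves room for up to 13.0%.

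The genes were sorted by how often they were detected in liver bud cells and in the cells of 3 pancreatic gates, ventral Pdx1-high (39 cells), dorsal Pdx1-low (40 cells) and dorsal Pdx1-high (28 cells). A gene in at least 50% of liver bud cells was called liver-only if it was in under 10% of the cells of each pancreatic gate, and shared if it was in at least 50% of the cells of any of them. By this division 6 genes were liver-only, 12 were shared, 16 were intermediate and 8 were in under 50% of liver bud cells. The classes are a description with no test. Detection at 20 CPM in place of 10 gave 8, 10, 15 and 9 genes, and detection at 5 CPM gave 5, 14, 17 and 6.

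The liver-only genes were Serpinc1 (antithrombin), Apoc2 (the cofactor of lipoprotein lipase), Fga (the fibrinogen alpha chain), Kng1 (kininogen), and the heavy chains Itih1 and Itih3. Serpinc1 was detected in 100% of liver bud cells (95% Clopper-Pearson interval 85.2% to 100%), against 2.56% of ventral Pdx1-high cells, 0 of 40 dorsal Pdx1-low cells and 7.14% of dorsal Pdx1-high cells. Itih3 was in 87.0% of liver bud cells (66.4% to 97.2%) and in 0 of 39, 0 of 40 and 0 of 28 cells of these gates, which allows shares of up to 7.69%, 7.50% and 10.7%. Apoc2 was in 95.7%, Itih1 in 95.7% and Kng1 in 82.6% of liver bud cells, and all 3 stayed at or below 7.50% in the pancreatic gates. Fga, in 100% of liver bud cells, reached 7.69% of ventral Pdx1-high cells. The class rests on these 3 gates alone, and in other ventral groups the genes were more frequent. Fga was in 19 of 54 Liv2+ cells, 11 of 59 ventral Pdx1+ cells and 5 of 39 ventral Pdx1-low cells, and Serpinc1 in 23 of 54, 7 of 59 and 6 of 39 of them. In E9.5 ventral cells Serpinc1 was in 18 of 44 (14 of 28 in set 1 and 4 of 16 in set 2) and Fga in 6 of 44. Itih1 was in 16 of 54, Apoc2 in 9, and Kng1 and Itih3 in 7 Liv2+ cells each. Serpinc1 left this class when detection was set at 5 CPM or when cells were thinned to 200000 reads, since 14.3% of thinned dorsal Pdx1-high cells held at least 2 of its reads.

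The 12 shared genes were Afp, Rbp4, Ambp, Apoe, Serpinf2, Ttr (transthyretin), Apom, Vtn (vitronectin), Serpind1 (heparin cofactor II), Serpina1b, Trf (transferrin) and Serpina1a. Rbp4 was in every cell of the liver bud and of the 3 pancreatic gates. Its level in dorsal Pdx1-low cells, 2532 RPKM, was above the 1914 RPKM of the liver bud, and Ttr likewise stood at 2928 RPKM in dorsal Pdx1-low cells and at 965 RPKM in the liver bud. Vtn was in all ventral and dorsal Pdx1-high cells and at 793 RPKM in the ventral ones, against 470 RPKM in the liver bud. Ambp, in 97.4% to 100% of the cells of the 3 gates, was lower there at 449 to 572 RPKM. Afp was shared only by the detection rule: it was in 56.4% of ventral Pdx1-high and 50.0% of dorsal Pdx1-high cells, at 64.4 and 33.7 RPKM. Serpind1 was shared with a single gate, in 55.0% of dorsal Pdx1-low cells (38.5% to 70.7%), 0 of 39 ventral Pdx1-high and 0 of 28 dorsal Pdx1-high cells. The Serpina1a and Serpina1b transcripts are 97.1% identical over 1333 aligned bases, and how the authors' counting assigned reads between them is not given in the sources used here, so their separate values are uncertain. The same holds for Serpina1c.

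The intermediate genes were Alb, Afm, Apoa1, Apoa2, Apob, Apoc1, Hpx, Serpina6, Fgb, Fgg, F2, F5, F10, Plg, Itih2 and C3. Apoa1, the main protein of high density lipoprotein, was in 100% of liver bud cells but in 2.56% of ventral Pdx1-high, 30.0% of dorsal Pdx1-low and 7.14% of dorsal Pdx1-high cells. Apoa2 followed the same order with 2.56%, 25.0% and 3.57%, and Apob, the scaffold of very low density lipoprotein, with 0 of 39, 15.0% and 0 of 28. Itih2 was in 19 of 39, 8 of 40 and 10 of 28 cells of the same gates. The genes of low frequency in the liver bud were Gc (vitamin D-binding protein), Ahsg (fetuin-A), Apoh (beta-2-glycoprotein I), Serpina1c, Itih4, Cp (ceruloplasmin), Apoa4 and Fetub. Of these Gc ran against the E10.5 liver bud in both Pdx1-high gates. It was in 47.8% of liver bud cells, 89.7% of ventral Pdx1-high cells and 78.6% of dorsal Pdx1-high cells. The 2 liver bud sets differed, with Gc in 8 of 12 and 3 of 11 cells, and Ahsg in 1 and 6 of them. Gc was in all 4 E15.5 liver cells. Serpina1c was in 34.8% of liver bud and 53.8% of ventral Pdx1-high cells. Gc and Serpina1c left this class with detection at 5 CPM, Gc also without liver bud set 2, and Ahsg without set 1. By role, the serpins were mostly shared (4 of 6) and the carriers too (4 of 7), and 6 of the 9 coagulation and fibrinolysis genes were intermediate.

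**Figure D1:**
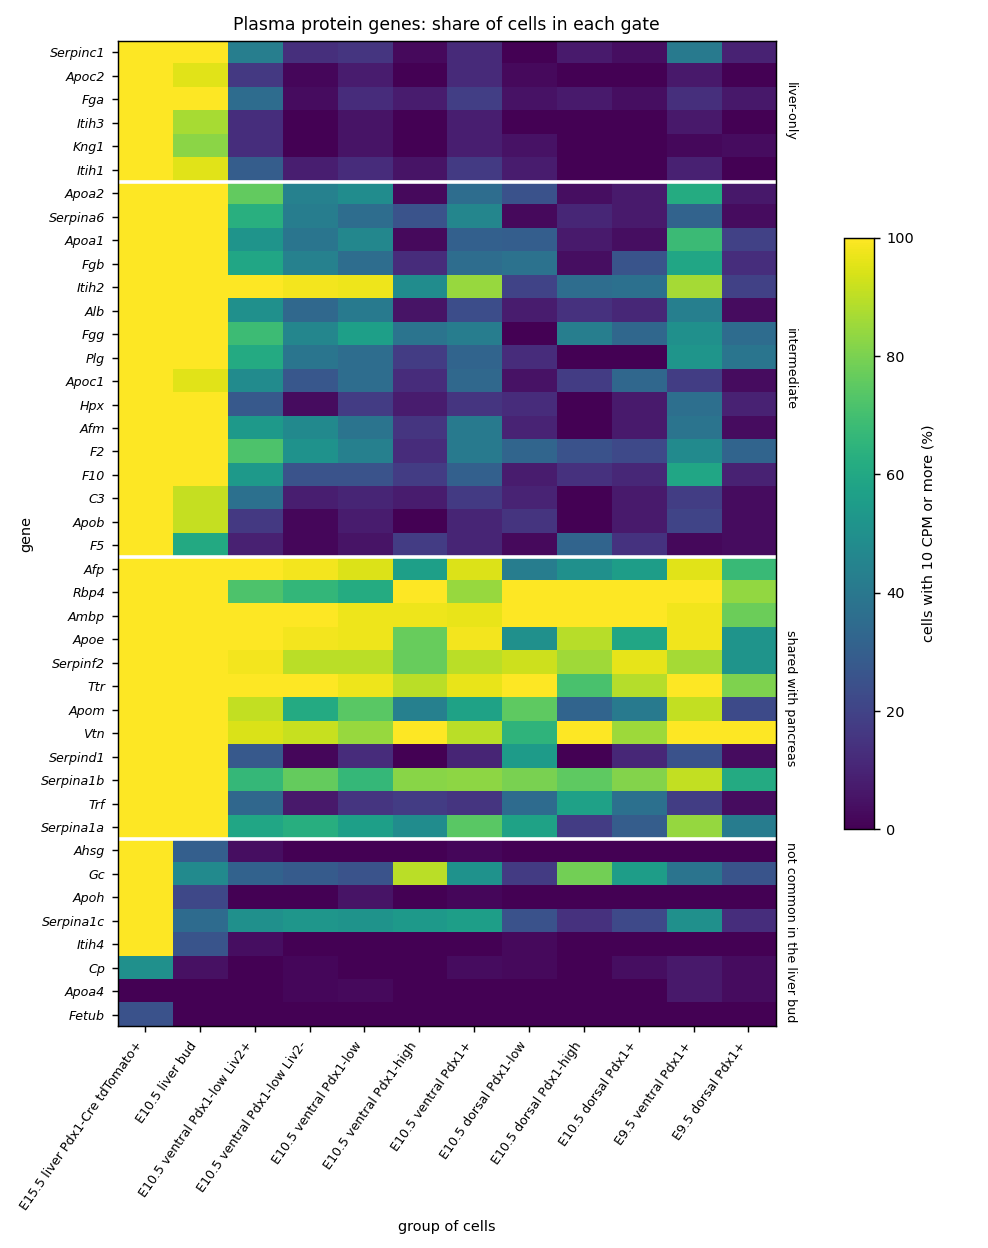
Share of cells in which each of the 42 genes reached 10 CPM (colour, percent), with genes in rows ordered within their class by liver bud level and the 12 groups of cells in columns. The liver-only rows are dark in the pancreatic gates, whereas Rbp4, Ambp and Ttr are bright across nearly all columns. Gc is brightest in the 4 E15.5 liver cells and, among the other groups, in the Pdx1-high gates.

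The median count of these genes per cell was higher in the liver bud than in every other E10.5 gate. A liver bud cell expressed a median of 35 of the 42 genes (range 31 to 39). The median was 18 (8 to 37) in ventral Pdx1-low Liv2+ cells and 15 (4 to 26) in Liv2- cells. Ventral Pdx1-low cells not split by Liv2 had a median of 14 (0 to 34), ventral Pdx1-high cells 12 (6 to 19), dorsal Pdx1-low cells 11 (4 to 21) and dorsal Pdx1-high cells 11.5 (5 to 16). The ranges of the Liv2+, the ventral Pdx1-low and the ventral Pdx1+ cells reached into that of the liver bud, whereas those of both Pdx1-high gates and of the dorsal gates did not. At E9.5 ventral Pdx1+ cells had a median of 18 (5 to 32) and dorsal Pdx1+ cells 10 (1 to 29).

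A minority of ventral cells carried liver bud numbers of these genes. At or above the lowest liver bud count of 31 were 10 of 54 Liv2+ cells, 6 of 59 ventral Pdx1+ cells, 3 of 39 ventral Pdx1-low cells, 1 of 44 E9.5 ventral Pdx1+ cells and 0 of 59 Liv2- cells. All 10 of the Liv2+ cells had Alb and none had Pdx1. Among the 6 ventral Pdx1+ cells, 6 had Alb and 1 had Pdx1. At the lower line of 21 genes were 24 of 54 Liv2+ cells (17 of 37 in set 1 and 7 of 17 in set 2), 7 of 59 Liv2- cells and 16 of 44 E9.5 ventral cells (13 of 28 in set 1 and 3 of 16 in set 2). Close to this line, with 19 to 22 genes, were 6 Liv2+, 4 Liv2- and 7 E9.5 ventral cells. Alb and Pdx1 transcripts occurred in the same cell in 9 of 59 Liv2-, 8 of 39 ventral Pdx1-low, 8 of 44 E9.5 ventral and 2 of 54 Liv2+ cells. The other ventral counts were 3 of 59 Pdx1+ and 2 of 39 Pdx1-high cells. On the dorsal side both transcripts were in 4 of 28 Pdx1-high, 3 of 27 Pdx1+, 0 of 40 Pdx1-low and 1 of 31 E9.5 cells. In the E9.5 ventral cells Alb, with or without Pdx1, was in 17 of 28 in set 1 and 2 of 16 in set 2.

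Other gene lists differed along with the count. Liv2+ cells with 21 or more of the genes had a median summed level of 504 CPM over 36 other liver secreted proteins of the tables, against 132 CPM in Liv2+ cells with fewer and 1010 CPM in the liver bud. The listed biliary primordium genes Sox17, Spp1, Krt19 and Epcam summed to 661 CPM in the Liv2+ cells with 21 or more. The sum was 1300 CPM in those with fewer and 41.8 CPM in the liver bud. It was also 1075 CPM in dorsal Pdx1-high cells, none of which had Sox17 at 10 CPM, so the sum is not particular to the biliary primordium. Median summed levels of mesenchyme and immune markers were 0 in every E10.5 group of cells, and their part in the counts was not tested. Median reads per cell were alike in Liv2+ cells above and below the line, at 1114331 and 1144425.

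**Figure D2:**
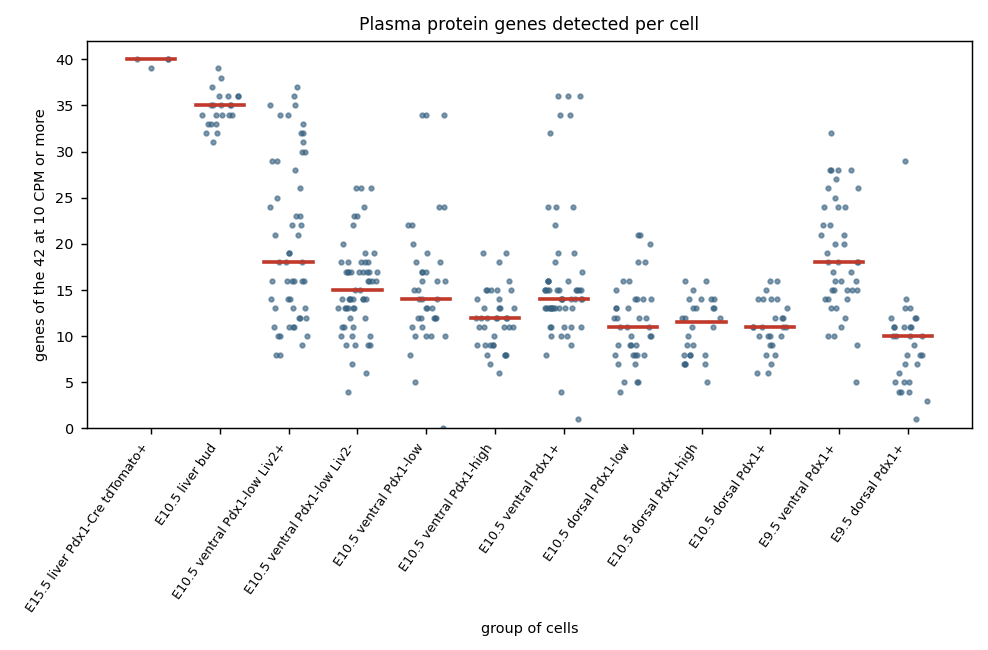
Number of the 42 genes at 10 CPM or more in each cell (y axis), one point per cell and one column per group, with the group median as a red bar. Liver bud cells lie between 31 and 39 genes, Liv2+ cells spread from 8 to 37, and both Pdx1-high gates stay at or below 19.

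Genes that lie side by side in the genome did not share one pattern in the pancreatic gates. The fibrinogen genes form a cluster on chromosome 3 of GRCm38 (Fgg 83007724 to 83015049, plus strand; Fga 83026076 to 83033627, plus strand; Fgb 83040141 to 83049863, minus strand), and their products assemble into one protein. All 23 liver bud cells had all 3 chains, against 17 of 54 Liv2+ cells and 1 of 59 Liv2- cells. In dorsal Pdx1-low cells Fgb was in 15 of 40 cells, Fga in 2 and Fgg in 0 of 40, where a count of 0 allows up to 7.50%. In 14 of the 15 cells Fgb was the sole chain. In the Pdx1-high gates Fgg was the more frequent chain, alone in 12 of 39 ventral and 9 of 28 dorsal cells, while Fgb was in 5 of 39 and 1 of 28.

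The albumin family lies on chromosome 5, with Alb (90460897 to 90476602), Afp (90490737 to 90508907) and Afm (afamin, 90518932 to 90553543) on the plus strand next to each other and Gc (89417522 to 89457898) farther off on the minus strand. Across the 37 sets the Pearson correlation of log2(CPM + 1) with Alb was 0.914 for Afp and 0.863 for Afm, but -0.303 for Gc, the lowest of the genes tested in sets, with Rbp4 next at -0.187. These are descriptions over sets that share groups and depth. Outside the 42 genes the 5 with the highest correlation with Alb were C1s1 (0.869), Vcam1 (0.859), Gm5549 (0.835), Lcat (0.834) and C8a (0.834).

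The promoters of these neighbours are shown because their genes part ways in the pancreas. Each window runs from 250 bases before to 50 bases after the annotated start in RefSeq (GRCm38.p6), 5′ to 3′ on the strand of the gene, and capitals mark letters found on either strand: GTTAAT, an HNF1 half-site, TGTTTAC and TGTTTGC, forkhead-like, TTGCNNAA, C/EBP-like, and CAAAGNNCA, HNF4-like. No match overlapped another. For Alb, Afp and Fga the RefSeq start differs from the gene start given above, and positions are counted from the RefSeq start. The windows are Alb (chr5:90460620-90460919, plus), Afp (chr5:90490464-90490763, plus), Gc (chr5:89457849-89458148, minus), Fga (chr3:83025903-83026202, plus), Fgb (chr3:83049814-83050113, minus) and Fgg (chr3:83007474-83007773, plus).
Alb: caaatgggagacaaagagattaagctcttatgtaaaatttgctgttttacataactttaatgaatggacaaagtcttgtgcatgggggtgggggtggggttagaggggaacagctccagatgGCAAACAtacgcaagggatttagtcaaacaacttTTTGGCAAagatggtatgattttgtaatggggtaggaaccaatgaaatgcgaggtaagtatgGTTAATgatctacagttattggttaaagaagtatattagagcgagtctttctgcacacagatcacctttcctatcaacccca
Afp: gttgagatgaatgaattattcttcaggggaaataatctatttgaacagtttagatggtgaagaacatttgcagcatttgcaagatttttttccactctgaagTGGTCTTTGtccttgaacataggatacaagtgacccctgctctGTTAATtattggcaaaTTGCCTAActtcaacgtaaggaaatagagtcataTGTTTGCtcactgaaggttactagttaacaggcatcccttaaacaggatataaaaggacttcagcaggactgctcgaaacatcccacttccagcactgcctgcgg
Gc: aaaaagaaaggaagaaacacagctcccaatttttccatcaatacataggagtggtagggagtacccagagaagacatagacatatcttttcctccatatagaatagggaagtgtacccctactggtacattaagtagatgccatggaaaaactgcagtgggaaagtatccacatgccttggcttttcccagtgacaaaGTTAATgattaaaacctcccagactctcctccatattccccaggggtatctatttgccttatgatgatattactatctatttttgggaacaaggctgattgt
Fga: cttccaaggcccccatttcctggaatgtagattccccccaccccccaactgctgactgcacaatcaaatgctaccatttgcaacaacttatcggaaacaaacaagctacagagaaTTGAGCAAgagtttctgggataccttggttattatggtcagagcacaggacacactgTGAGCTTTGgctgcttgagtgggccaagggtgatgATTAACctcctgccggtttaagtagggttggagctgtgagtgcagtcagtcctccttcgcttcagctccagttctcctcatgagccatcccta
Fgb: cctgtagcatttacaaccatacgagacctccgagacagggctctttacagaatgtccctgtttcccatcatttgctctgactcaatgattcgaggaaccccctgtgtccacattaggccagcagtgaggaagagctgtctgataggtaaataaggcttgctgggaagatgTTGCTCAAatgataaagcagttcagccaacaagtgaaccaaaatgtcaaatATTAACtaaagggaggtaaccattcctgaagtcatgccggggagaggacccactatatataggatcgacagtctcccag
Fgg: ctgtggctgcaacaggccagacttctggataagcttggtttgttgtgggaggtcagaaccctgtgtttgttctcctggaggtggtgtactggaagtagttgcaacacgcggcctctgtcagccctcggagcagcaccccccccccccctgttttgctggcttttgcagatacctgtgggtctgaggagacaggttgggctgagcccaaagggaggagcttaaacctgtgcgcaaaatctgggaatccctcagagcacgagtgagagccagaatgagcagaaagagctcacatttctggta
The Alb window held an HNF1 half-site at -32, counted from the start, a C/EBP-like match at -94 and a forkhead-like match at -128. The Afp window held the same 3 kinds and an HNF4-like match at -148. Fga and Fgb each held an HNF1 half-site (-43 and -29) and a C/EBP-like match (-135 and -80), Fga also an HNF4-like match (-78), Gc an HNF1 half-site alone (-52), and Fgg none of the letters searched. Over the 42 RefSeq promoters of 36 of these genes, GTTAAT was in 35.7%, TTGCNNAA in 35.7%, TGTTTGC in 23.8%, CAAAGNNCA in 8 of 42 and TGTTTAC in 11.9%. Among all 32851 windows of the same length the shares were 7.10%, 10.8%, 5.07%, 6.36% and 3.65%. A match is a run of letters, and no binding was measured here.

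The 4 E15.5 liver cells marked by Pdx1-Cre held 39 or 40 of the 42 genes each, and the genes took 8.37% to 14.4% of their reads. They form 1 set, so their values were not tested. Alb was at 11759, 13893, 11175 and 14581 CPM, and Afp at 29753, 44354, 49949 and 44846 CPM. Several genes that were rare in the E10.5 liver bud were abundant in all 4 cells. Ahsg stood at 2350, 3020, 1317 and 6932 CPM, against detection in 30.4% of liver bud cells at a mean of 12.9 CPM. Gc stood at 1276, 1147, 649 and 2698 CPM, and Apoh at 579, 400, 486 and 1113 CPM. Itih4 was at 297, 123, 41.2 and 219 CPM. Cp was detected in 2 of the 4 cells, Fetub in 1 and Apoa4 in 0. Pdx1 was at 0, 0, 1.96 and 0 CPM. Erythroid markers summed to a median of 389 CPM in these cells, and their part in the values was not tested.

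The liver bud differed from ventral Pdx1-high cells in most of the genes when summed sets were tested. Of 41 genes tested, 31 were higher in the liver bud and 1 was lower at an adjusted p under 0.05 in edgeR's quasi-likelihood test, where 5.52% of all 17433 genes were called. The median log2 fold change was 6.04 for the members and -0.08 for all genes. In these sums, as in the bulk libraries, fewer cells expressing a gene and less RNA per cell cannot be told apart. By role 8 of 9 apolipoproteins, 7 of 9 coagulation and fibrinolysis genes, 5 of 7 carriers, 5 of 6 serpins, 3 of 4 heavy chains and 3 of 4 albumin family genes were higher.

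Serpinf2, the main inhibitor of plasmin, stood at 2643 and 3011 CPM in the liver bud sets, against 26.8, 167, 110, 89.8 and 58.5 CPM in ventral Pdx1-high sets (log2 fold change 4.96, SE 0.47, adjusted p = 3.41e-08). Apom was at 895 and 1009 CPM in the liver bud and between 6.30 and 24.8 CPM in Pdx1-high sets (6.04, SE 0.75, adjusted p = 3.50e-06). Afp was at 25343 and 35471 CPM in the liver bud, against 21.9, 159, 395, 38.5 and 67.8 CPM (7.80, SE 1.00, adjusted p = 5.40e-06). No liver bud set overlapped a Pdx1-high set in these genes. Apoa2 reached 1255 and 1788 CPM in the liver bud but at most 0.417 CPM in Pdx1-high sets, Apoa1 1057 and 1579 CPM but at most 1.05 CPM, and Fgg 775 and 919 CPM against 7.29 to 48.9 CPM (4.91, SE 0.68, adjusted p = 2.07e-05).

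Apob, Apoc2, Kng1, Itih3, Itih4 and Apoh had no read in any Pdx1-high set. Against a floor of 3 counts over the group, they were at least 3067, 1492, 986, 1630, 87.5 and 108 times higher in the liver bud. These bounds cover counting error only. Of the 3 genes with a negative log2 fold change Gc alone was called. Gc was at 18.5 and 14.6 CPM in the liver bud and at 171, 411, 320, 92.9 and 475 CPM in Pdx1-high sets (-4.15, SE 1.10, adjusted p = 0.0208). Its call was lost without liver bud set 1 (adjusted p = 0.172) and without set 2 (0.310). Without liver bud set 2 the count fell to 19 genes, and without set 1 Ttr (0.0611), Hpx (0.0633), F10 (0.0701), Itih4 (0.0688) and Apoh (0.0825) also lost their calls. Apoh lost its call without any one of the 7 sets (adjusted p up to 0.368), F10 also without Pdx1-high set 2 or 6 (0.0562 and 0.0640), and Itih4 without Pdx1-high set 4 or 6 (0.0519 and 0.0509).

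Markers moved with this contrast. Pdx1 was lower in the liver bud (log2 fold change -11.41, SE 1.82, adjusted p = 0.000131), as were 6 of 8 pancreatic progenitor genes, and Epcam fell by 3.89 on the log2 scale (adjusted p = 1.38e-05). Of the list of other liver secreted proteins 7 of 27 tested rose and 0 fell, with the complement protease gene C1s1 first (12.02, SE 1.52, adjusted p = 0.000131). Among 15 hepatic transcription factors 4 rose (Creb3l3, Tbx3, Foxa1 and Hnf4a).

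**Figure D3:**
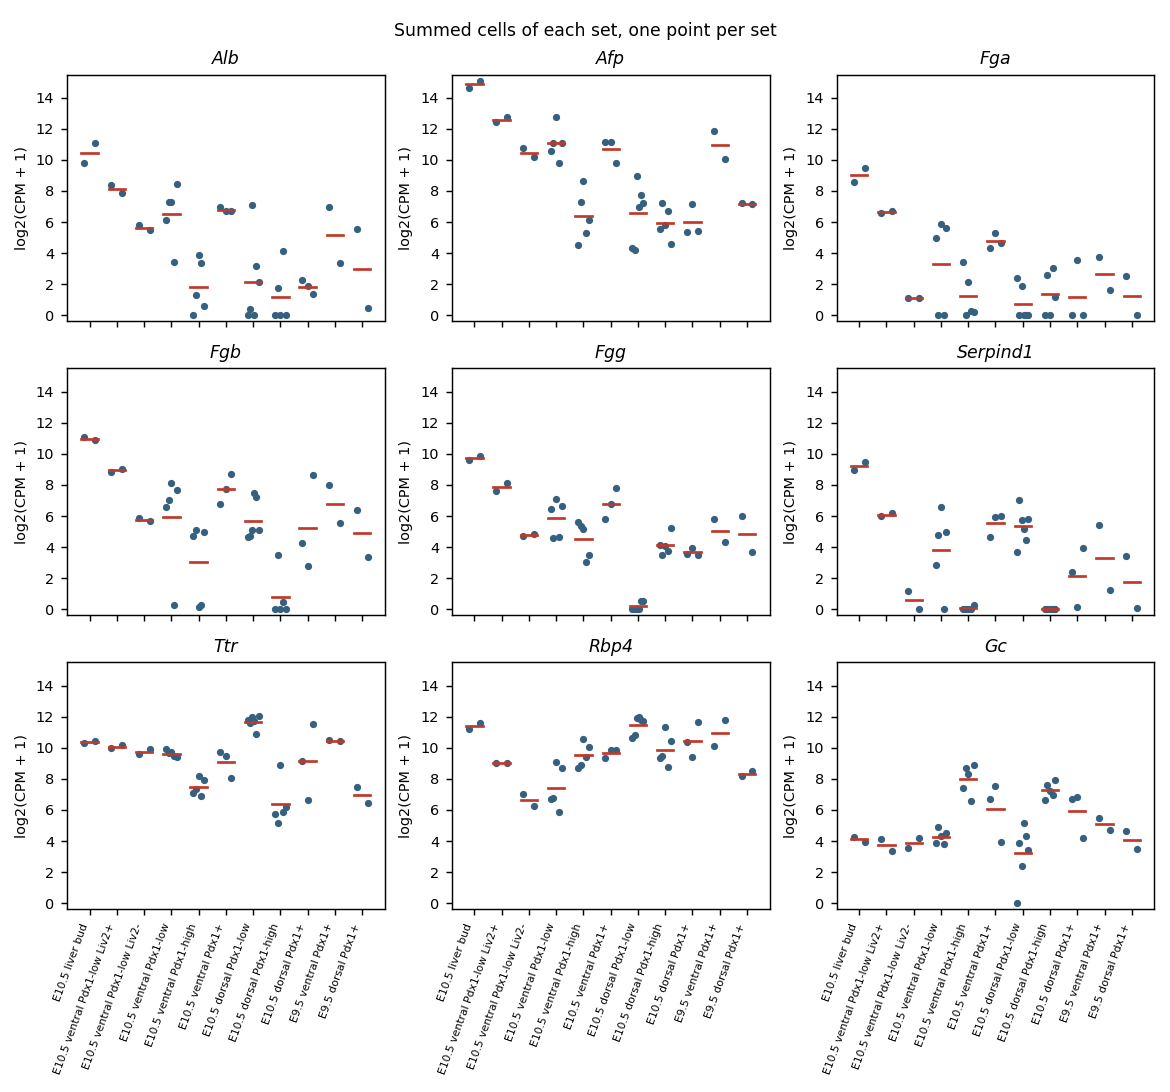
Level of 9 of the genes as log2(CPM + 1) in every set of at least 3 cells, one point per set, with the group mean as a red bar and the 11 groups along the x axis. Alb, Afp and the fibrinogen genes are highest in the 2 liver bud sets, Ttr and Rbp4 reach their top in dorsal Pdx1-low sets as well, Fgg is near 0 there, and Gc peaks in the Pdx1-high sets.

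In summed sets the log2 fold change of liver bud over ventral Pdx1-low Liv2+ was positive for 39 of 41 genes, yet no gene was called. Single cells overlapped, as 10 of 54 Liv2+ cells had 31 or more of the genes. Of 41 genes tested, 0 were called and 6 had an unadjusted p under 0.05. Of all 17433 genes edgeR called 0.562%, and 1272 had an unadjusted p under 0.05. DESeq2 called 1 member and 469 of all genes. The median log2 fold change was 2.39 for the members and -0.07 for all genes. Serpinf2 was at 2643 and 3011 CPM in the liver bud and 769 and 626 CPM in Liv2+ sets (2.02, SE 0.60, adjusted p = 0.180). Apom was at 895 and 1009 CPM, against 142 and 168 CPM (2.62, SE 0.94, adjusted p = 0.399). Only 2 sets a side entered, and a p above the threshold does not show equal levels. Of the biliary primordium list Epcam, which was not particular to that list's tissue, and Sox17 were lower in the liver bud (-3.61, adjusted p = 0.000255, and -8.04, adjusted p = 0.0399). Epcam averaged 973 CPM in dorsal Pdx1-high sets.

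Within ventral Pdx1-low cells, the Liv2+ sets had more of most of these genes than the Liv2- sets, again with none called. Of 41 genes 0 were called by edgeR, 1 by DESeq2, and 13 had an unadjusted p under 0.05 in edgeR. Of all 17433 genes edgeR called 0%, 203 had an unadjusted p under 0.05, and DESeq2 called 29. The median log2 fold change was 2.18, against 0.00 for all genes. In simulated counts this comparison found 11% of 4-fold changes, so a count of 0 does not show equal levels. Trf, the iron carrier of plasma, was at 39.3 and 39.4 CPM in Liv2+ and at 2.75 and 1.17 CPM in Liv2- sets (4.32, SE 1.19, adjusted p = 1.00). Fgg was at 193 and 276 CPM in Liv2+ and at 24.8 and 28.0 CPM in Liv2- sets (3.15, SE 0.91, adjusted p = 1.00). Itih2, Ambp and Ttr were closer between the gates: Itih2 was at 1566 and 1480 CPM in Liv2+ and at 970 and 973 CPM in Liv2- sets, Ambp at 1992 and 2131 against 1571 and 1600 CPM, and Ttr at 1004 and 1158 against 780 and 956 CPM.

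The sides differed in the Pdx1-low gate. Of 41 genes tested, 17 were higher and 2 lower in ventral than in dorsal Pdx1-low sets, where 24.9% of all genes were called. The median log2 fold change was 2.00, against 0.00 for all genes. Fgg was at 87.7, 22.8, 134, 24.5 and 97.2 CPM in ventral sets, against 0, 0, 0, 0, 0.418 and 0.463 CPM in dorsal sets (8.22, SE 0.77, adjusted p = 9.64e-09). Apoe was at 564, 585, 568, 171 and 581 CPM in ventral sets and at 0.309 to 38.8 CPM in dorsal ones (4.81, SE 0.67, adjusted p = 4.81e-06), and Itih2 at 820 to 1965 CPM against 0 to 17.9 CPM (7.32, SE 1.07, adjusted p = 9.24e-06). Every ventral set was above every dorsal set in these 3 genes. Ambp was at 1413 to 1743 CPM in ventral and 191 to 799 CPM in dorsal sets (1.67, SE 0.30, adjusted p = 0.000114). Afp was at 906 to 6899 CPM against 17.3 to 488 CPM (4.04, SE 0.74, adjusted p = 0.000163). Serpina6, the corticosteroid-binding globulin, averaged 140 ± 151 CPM in 5 ventral and 1.44 ± 3.10 CPM in 6 dorsal sets (SD; 7.03, SE 1.46, adjusted p = 0.000615). These 3 genes did not overlap between the sides either.

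Rbp4 and Ttr ran the other way. Rbp4 was at 104, 107, 552, 56.7 and 420 CPM in ventral Pdx1-low sets, against a range of 1564 to 4076 CPM with a median of 3494 in the dorsal sets (-3.62, SE 0.57, adjusted p = 2.13e-05). Ttr was at 674 to 953 CPM in ventral and 1925 to 4201 CPM in dorsal sets (-2.08, SE 0.58, adjusted p = 0.00838). The dorsal Pdx1-low cells were rich in endocrine transcripts: their 9 endocrine markers summed to a median of 47610 CPM per cell, against 24.8 CPM in ventral Pdx1-low cells, and 9 of 9 were lower on the ventral side. Of 6 mesenchyme markers 4 were higher on the ventral side, although their summed median per cell was 0. The part of these markers in the result was not tested. Of the called genes Serpina1a (adjusted p = 0.0454) lost its call in 8 of 11 fits with a set left out, Serpina1b in 8, Apoa1 in 6, and Serpina1c and Fga in 1 each, with adjusted p up to 0.111, 0.132, 0.221, 0.0988 and 0.0524. With sets of at least 5 cells Serpina1a (0.127), Serpina1b (0.223), Serpina1c (0.231) and Fga (0.0805) lost their calls. DESeq2 did not call Itih3 (0.0849), Fga (0.0527), Apoa1 (0.0809), Serpina1a (0.0555) or Serpina1b (0.0770).

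Within the dorsal side, Pdx1-low sets differed from Pdx1-high sets in 16 of 41 genes, 10 higher and 6 lower, where 23.9% of all genes were called. Ttr averaged 3386 ± 830 CPM (SD, 6 sets) in Pdx1-low and 140 ± 192 CPM (SD, 5 sets) in Pdx1-high sets (4.60, SE 0.65, adjusted p = 8.43e-06). Serpind1 was at 11.8, 132, 52.9, 35.1, 20.9 and 56.1 CPM in Pdx1-low sets and at 0 in all 5 Pdx1-high sets. Against a floor of 3 counts over the Pdx1-high sets it was at least 446 times higher, a bound that covers counting error only. Fgb was at 24.1 to 180 CPM in Pdx1-low sets and at 0, 10.2, 0, 0.399 and 0 CPM in Pdx1-high sets (5.12, SE 1.39, adjusted p = 0.00758). In all 3 genes the Pdx1-low sets lay above the Pdx1-high sets. Apom (2.83), Serpina1a (1.73) and Hpx, Apob, Plg, Rbp4 and Afm made up the other higher genes.

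Fgg, Vtn and Gc were lower in dorsal Pdx1-low sets. Fgg had at most 0.463 CPM in Pdx1-low sets, against 16.9, 10.2, 15.7, 12.6 and 36.3 CPM in Pdx1-high sets (-6.21, SE 0.75, adjusted p = 8.68e-07). Vtn averaged 84.7 ± 74.6 CPM (SD, 6 sets) in Pdx1-low and 770 ± 283 CPM (SD, 5 sets) in Pdx1-high sets without overlap (-3.18, SE 0.55, adjusted p = 9.19e-05). Gc was at 0 to 34.8 CPM against 101 to 240 CPM (-3.57, SE 0.67, adjusted p = 0.000269). Apoe, Apoc1 and F5 were lower as well. Fgb and Fgg, chains of one protein, thus moved in opposite directions between the same gates. With sets of at least 5 cells the Fgb call was lost (4.34, adjusted p = 0.0920), as were those of Apob (0.0881), F5 (0.236), Plg (0.253) and Afm (0.0889). Rbp4 (adjusted p = 0.0464) lost its call in 8 of 11 fits with a set left out and Afm (0.0471) in 6, with adjusted p up to 0.120 and 0.576, and Plg and Apoc1 in 1 each (0.154 and 0.0543). Of 9 endocrine markers 8 were higher in the Pdx1-low sets, and Pdx1 was lower (-3.93, SE 0.73, adjusted p = 0.000212).

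On the ventral side Pdx1-low sets had more of 9 genes and less of 1 than Pdx1-high sets, where 0.952% of all genes were called. Apoa2 was at 24.4, 13.7, 264, 17.9 and 186 CPM in Pdx1-low sets, against at most 0.417 CPM in Pdx1-high sets. Serpinf2 was at 338, 330, 604, 179 and 517 CPM, against 26.8 to 167 CPM (2.12, SE 0.38, adjusted p = 0.00238), and Afp at 906 to 6899 CPM, against 21.9 to 395 CPM (4.33, SE 0.81, adjusted p = 0.00362). Gc was at 13.1 to 29.5 CPM in Pdx1-low sets and at 92.9 to 475 CPM in Pdx1-high sets (-3.92, SE 0.73, adjusted p = 0.00326). None of these sets overlapped between the gates. Apoa1 and Serpind1 were also higher, as were Itih2, Apom, Ambp and Serpinc1, which lost their calls in 5, 5, 9 and 7 of 10 fits with a set left out (adjusted p up to 0.0912, 0.149, 0.132 and 0.157). Leaving out Pdx1-high set 1, 5 or 6 or Pdx1-low set 3 gave 6 calls. DESeq2 called 18 of these genes and 570 of all genes. With sets of at least 5 cells the Ambp call was lost (adjusted p = 0.0732). Among markers, 5 of 8 pancreatic progenitor genes were lower in the Pdx1-low sets, with Ptf1a at a mean of 0.222 CPM against 99.2 CPM (-8.74, SE 1.62, adjusted p = 0.00382). Of 4 biliary primordium genes Sox17 was higher (416 against 7.35 CPM; 5.82, SE 1.09, adjusted p = 0.00356), and of 6 mesenchyme genes Col1a1 (252 against 0.0729 CPM; 11.40, SE 2.73, adjusted p = 0.0319). Mesenchyme sums reached 17073 CPM in a Pdx1-low cell and 75.4 CPM in a Pdx1-high cell, with medians of 0, and the part of these markers was not tested.

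The step between the gates differed between the sides for 12 of 41 genes, tested as a difference of the differences, where 11.1% of all genes were called. It was more positive on the ventral side for Fgg (difference 7.59 on the log2 scale, SE 0.94, adjusted p = 1.55e-05), Apoe (4.50, adjusted p = 0.00150), Itih2 (6.02, adjusted p = 0.00354), Ambp (1.78, adjusted p = 0.00749), Serpinc1 (6.67), Apoc1 (4.26), Apoa1 (5.28), Serpina6 (5.87), Afp (3.16) and Apoa2 (6.36). It was more negative for Rbp4 (-3.14, SE 0.74, adjusted p = 0.00612) and Ttr (-2.52, SE 0.81, adjusted p = 0.0392). Ttr lost its call in 14 of 21 fits with a set left out, Apoa2 in 13, Serpina6 in 10, Afp in 9, Apoa1 in 2 and Serpinc1 in 1, with adjusted p up to 0.0770, 0.686, 0.471, 0.108, 0.577 and 0.0782. Without ventral Pdx1-low set 3, 7 genes were called. With sets of at least 5 cells Apoa1 (2.82, adjusted p = 0.349) and Apoa2 (3.17, adjusted p = 0.732) lost their calls, and DESeq2 did not call Serpina6 (0.0787).

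In Pdx1-high cells no gene was called between the ventral and the dorsal side. Of 41 genes 0 were called by edgeR, 3 by DESeq2 and 9 had an unadjusted p under 0.05 in edgeR. Of all 17433 genes edgeR called 0.00574%, 1847 had an unadjusted p under 0.05, and DESeq2 called 228. Hpx, the haem scavenger hemopexin, was at 2.31, 0, 4.20, 8.12 and 0.0900 CPM in ventral sets and at 0 in all 5 dorsal sets, and Plg (plasminogen) averaged 5.98 ± 3.87 CPM in ventral sets, 1 of them at 0, and 0.240 ± 0.536 CPM in dorsal sets (SD, 5 sets each). Their adjusted p were 0.306 and 0.320, and the groups overlapped in every gene. A p above the threshold does not show that the sides were equal.

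In all Pdx1+ cells at E10.5, 4 of 41 genes were higher on the ventral side and 0 lower, where 0.470% of all genes were called. Fgg was at 55.3, 106 and 220 CPM in ventral and at 10.6, 14.2 and 10.3 CPM in dorsal sets (3.42, SE 0.76, adjusted p = 0.0296). Afp was at 2283, 2231 and 912 CPM, against 39.9, 141 and 41.8 CPM (4.60, SE 1.07, adjusted p = 0.0404). Serpina1a (2.73, adjusted p = 0.0420) was higher as well. Plg was higher too, at 34.8, 43.3 and 39.7 CPM in ventral sets and at 0 in dorsal ones. Against a floor of 3 counts over the dorsal sets it was at least 285 times higher, a bound that covers counting error only. The difference in Plg was smaller in the bulk E10.5 Pdx1+ libraries, with 42.7 and 36.4 CPM in ventral and 2.68 and 2.31 CPM in dorsal ones. The ventral sets lay above the dorsal ones in all 4 genes. Each call was lost in 5 or 6 of 6 fits with a set left out, with adjusted p up to 0.262 for Fgg, 0.393 for Afp, 0.336 for Serpina1a and 0.314 for Plg. With sets of at least 5 cells Fgg lost its call too (2.78, adjusted p = 0.125). DESeq2 called 9 of these genes and 326 of all genes. Of 9 endocrine markers 8 were lower on the ventral side, with Neurod1 at 0 CPM in ventral sets and a mean of 223 CPM in dorsal ones (adjusted p = 4.38e-07). Summed per cell they had a median of 3.98 CPM (0 to 318) in ventral and 86.2 CPM (3.31 to 73943) in dorsal cells. The biliary marker Sox17 was higher (114 against 1.60 CPM; 6.06, SE 1.46, adjusted p = 0.0481). The part of these markers in the result was not tested.

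At E9.5, 0 of 41 genes were called between ventral and dorsal Pdx1+ sets by edgeR and 1 by DESeq2, and 10 had an unadjusted p under 0.05. Of all 17433 genes edgeR called 0%, 273 had an unadjusted p under 0.05, and DESeq2 called 33. Apom averaged 94.0 ± 23.9 CPM in ventral and 8.14 ± 3.30 CPM in dorsal sets (SD, 2 sets each; 3.55, SE 0.99, adjusted p = 1.00). Ttr was at 1439 and 1368 CPM, against 174 and 87.1 CPM (3.43, SE 0.99, adjusted p = 1.00). Both genes were higher in each ventral set. Between ventral E10.5 and E9.5 sets 0 genes were called by edgeR and 2 had an unadjusted p under 0.05. Of all 17433 genes 0% were called and 379 had an unadjusted p under 0.05. Fgg was at 55.3, 106 and 220 CPM at E10.5 and at 53.8 and 19.2 CPM at E9.5, and Rbp4 at 647, 915 and 910 against 1111 and 3580 CPM (adjusted p = 1.00 each). The difference between the sides did not change detectably from E9.5 to E10.5: 0 genes were called by edgeR, 1 by DESeq2 and 5 had an unadjusted p under 0.05. Of all 17433 genes edgeR called 0.0402%, 711 had an unadjusted p under 0.05, and DESeq2 called 67. Ttr (-4.43, SE 1.22, adjusted p = 0.446) and Rbp4 (-3.91, SE 1.10, adjusted p = 0.493) had the smallest p among the members. Without E10.5 dorsal Pdx1+ set 2, 1 gene was called. Of the 44 ventral E9.5 cells, 25 of the 28 in set 1 carry labels whose growth protocol does not describe embryos, and without them 0 genes were called in each of these 3 comparisons. The main fits had called 0 genes as well, so these counts cannot show whether the cells matter.

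In the bulk E10.5 libraries most of the genes were higher on the ventral side. Of 39 genes tested (Apoh, Itih4 and Fetub were too low), 28 were higher and 3 lower in ventral than in dorsal Pdx1+ libraries, where 25.3% of all 17690 genes were called. The median log2 fold change was 2.34 for the members and -0.03 for all genes. The 42 genes took 0.522% and 0.454% of scaled reads in the ventral libraries, against 0.201% and 0.189% in the dorsal ones. All 6 serpins, 6 of 8 apolipoproteins, 6 of 9 coagulation and fibrinolysis genes, 3 of 3 heavy chains and 3 of 4 albumin family genes were higher.

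Afm, a carrier of vitamin E, was at 41.0 and 48.8 CPM in ventral and at 1.29 and 1.10 CPM in dorsal libraries (5.23, SE 0.22, adjusted p = 7.33e-10). Plg was at 42.7 and 36.4 CPM, against 2.68 and 2.31 CPM (3.98, SE 0.35, adjusted p = 1.03e-06), and C3 at 24.1 and 18.4 CPM, against 2.04 and 2.41 CPM (3.25, SE 0.29, adjusted p = 1.14e-06). Serpina6 was at 68.6 and 37.5 CPM, against 4.82 and 4.72 CPM (3.46, SE 0.34, adjusted p = 2.98e-06). No ventral library overlapped a dorsal one in these genes. Itih2 reached 795 and 789 CPM in ventral libraries and 15.3 and 16.0 CPM in dorsal ones, Afp 1604 and 1258 CPM against 63.1 and 39.3 CPM, and Alb 139 and 116 CPM against 2.04 and 2.41 CPM (5.83, SE 0.98, adjusted p = 0.000492).

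The 3 genes lower on the ventral side in bulk were Rbp4, F5 and Gc. Rbp4 was at 214 and 184 CPM in ventral and 489 and 484 CPM in dorsal libraries (-1.29, SE 0.14, adjusted p = 8.36e-06). F5 was at 8.82 and 8.23 CPM, against 27.0 and 26.3 CPM (-1.65, SE 0.21, adjusted p = 3.57e-05), and Gc at 56.2 and 56.7 CPM, against 79.3 and 75.3 CPM (-0.45, SE 0.07, adjusted p = 0.000392). Ttr (199 and 186 against 176 and 144 CPM), Vtn (359 and 358 against 396 and 394 CPM), Trf, Cp, Kng1, Apoc2, Apoa4 and Ahsg did not pass the test.

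Of the 31 calls, Hpx, F2, Itih3 and Fga were lost with 1 of the 4 libraries left out (adjusted p up to 0.0575, 0.0533, 0.0596 and 0.0721), Serpind1, Apoa1 and Apob with 2 (0.0942, 0.0944 and 0.140), Apom and Apoc1 with 3 (0.138 and 0.177), and F10 and Serpina1b with any (0.257 and 0.273). Markers of other cell types also moved between these libraries: 6 cardiac muscle genes summed to 1145 to 2096 CPM in ventral and 5.02 to 22.7 CPM in dorsal libraries, 6 mesenchyme genes to 415 to 712 against 30.5 to 39.8 CPM, 6 immune genes to 56.6 to 180 against 18.7 to 28.0 CPM, 7 erythroid genes to 418 to 604 against 217 to 260 CPM (4 of 7 higher), and 9 endocrine genes to 59.3 to 105 against 4040 to 4227 CPM. Pdx1 was lower on the ventral side (-1.18, SE 0.09, adjusted p = 2.11e-07). Their part in the result was not tested. Among the 24 tested other liver secreted proteins 9 rose (C1s1 first, 3.69, adjusted p = 2.81e-05) and Agt fell, and of 15 hepatic transcription factors 6 rose, among them Hhex (2.91, adjusted p = 4.48e-08), and Prox1 and Foxa2 fell.

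**Figure D4:**
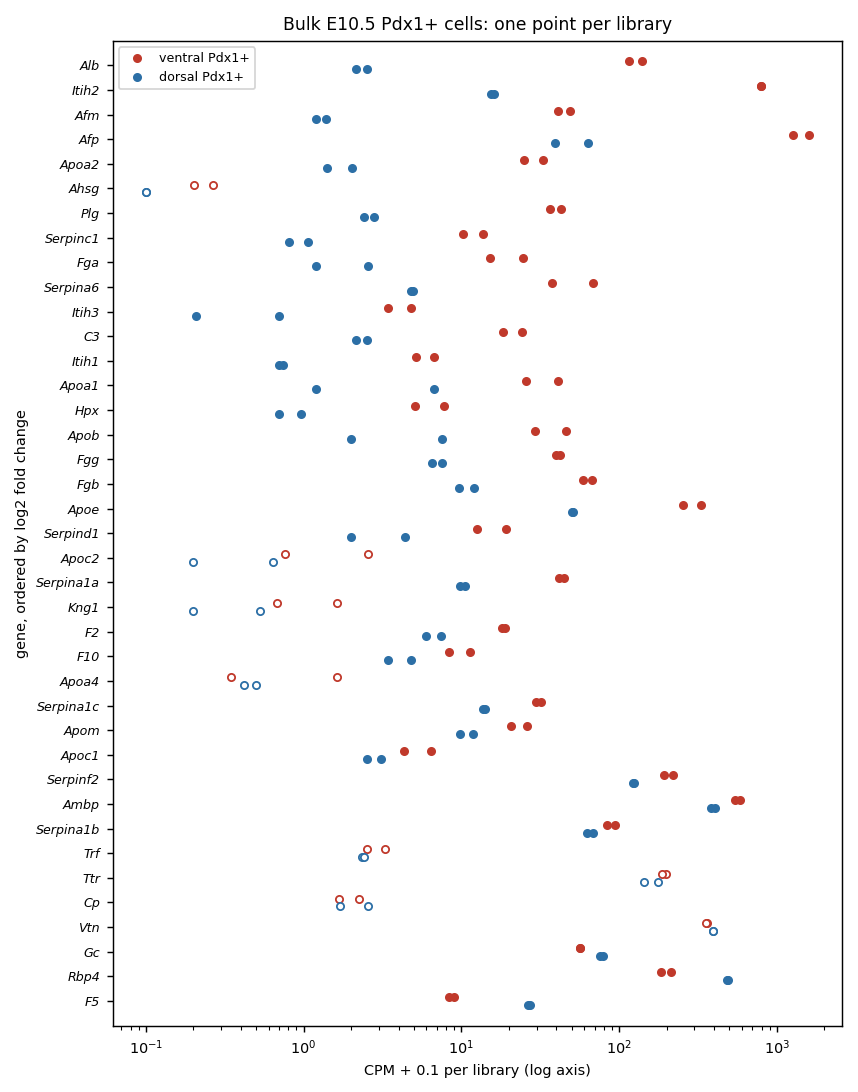
Level of the 39 tested genes in the bulk E10.5 Pdx1+ libraries as CPM + 0.1 on a log axis, one point per library, ventral in red above dorsal in blue, ordered by log2 fold change, with open points for genes not called. Alb, Itih2 and Afm head the list, and Gc, Rbp4 and F5 at the foot are lower in the ventral libraries.

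In the later bulk libraries few of the genes were called between the sides. Between ventral and dorsal Ngn3-high libraries 2 of 39 genes were lower and 0 higher, where 0.486% of all genes were called. Gc was at 6.10 and 6.62 CPM in ventral and at 9.20 and 9.54 CPM in dorsal libraries (-0.55, SE 0.10, adjusted p = 0.0216), and Ttr at 498 and 504 against 693 and 718 CPM (-0.49, SE 0.10, adjusted p = 0.0401). Both calls were lost with any of the 4 libraries left out (adjusted p up to 0.325 and 0.354). Between the Ngn3-low libraries 0 genes were called by edgeR, 1 by DESeq2 and 13 had an unadjusted p under 0.05. Of all 17690 genes edgeR called 0.0170%, 625 had an unadjusted p under 0.05, and DESeq2 called 13. Gc was at 112 and 115 CPM in ventral and 153 and 148 CPM in dorsal Ngn3-low libraries (adjusted p = 0.166), and Fgg at 3.56 and 3.02 against 0.619 and 1.44 CPM (adjusted p = 0.306). Without dorsal Ngn3-low library 2, 2 genes were called. The single libraries differed widely in Alb, which was at 104 and 69.8 CPM in ventral and at 6.13 and 63.4 CPM in dorsal Ngn3-low libraries. Between ventral and dorsal Ins1+ libraries 0 genes were called by edgeR or DESeq2 and 1 had an unadjusted p under 0.05. Of all 17690 genes edgeR called 0.0283%, 546 had an unadjusted p under 0.05, and DESeq2 called 10. Serpina1b was at 1.54 and 2.81 against 3.53 and 3.25 CPM, and Serpind1 at 0.0770 and 0.104 against 0.481 and 0.757 CPM (adjusted p = 1.00 each).

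Between the Ngn3 gates, both sides averaged, 5 of 39 genes were higher and 27 lower in Ngn3-high libraries, where 70.8% of all genes were called. Rbp4 averaged 628 ± 72.5 CPM in Ngn3-high and 29.8 ± 3.70 CPM in Ngn3-low libraries (SD, n = 4 each; 4.39, SE 0.11, adjusted p = 1.02e-13 by edgeR). Ttr averaged 603 ± 118 against 170 ± 13.2 CPM (SD, n = 4 each; 1.80, adjusted p = 9.74e-12 by edgeR). Serpinf2 (1.71), Itih1 (1.79) and Ambp (0.21) were the other higher genes. Gc averaged 7.86 ± 1.75 against 132 ± 21.5 CPM (-4.08), Vtn 1.66 ± 0.567 against 63.1 ± 9.23 CPM (-5.25), Serpina6 30.4 ± 10.2 against 442 ± 67.0 CPM (-3.91) and Afm 4.07 ± 1.51 against 57.9 ± 3.95 CPM (-3.91). These ranges did not overlap between the gates. F5 (-1.42) and Afp (-3.90) were also among the 27 lower genes. All 9 endocrine markers rose, 6 of 6 mesenchyme, 6 of 6 endothelial and 5 of 6 immune markers fell, and their part in the result was not tested. Fga, Serpind1, Ahsg and Apoa2 each lost the call in 1 of 8 fits with a library left out (adjusted p up to 0.185, 0.350, 0.0512 and 0.0890).

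Ins1+ libraries of E17.5 and Ngn3-high libraries of E14.5 differ in stage and in sort together. In Ins1+ libraries 10 of 39 genes were higher and 13 lower, where 62.0% of all genes were called. Ambp averaged 117 ± 5.95 CPM in Ins1+ and 516 ± 24.6 CPM in Ngn3-high libraries (SD, n = 4 each; -2.14, SE 0.06, adjusted p = 1.75e-12 by edgeR). Serpinf2 was at 4.69 to 6.70 CPM in Ins1+ and 52.4 to 71.7 CPM in Ngn3-high libraries (-3.41), Serpina1c averaged 1.21 ± 0.632 against 63.9 ± 5.06 CPM (-5.65), and Serpina1b (-2.72), F5 (-2.38) and Apoc1 (-2.58) were lower too. Rbp4 did not pass, at 528 to 736 CPM in Ins1+ and 538 to 708 CPM in Ngn3-high libraries, and Ttr was slightly lower (-0.41, adjusted p = 0.000126). Gc (16.0 ± 1.14 against 7.86 ± 1.75 CPM, 1.05), C3 (14.7 ± 2.81 against 3.64 ± 0.303 CPM, 2.01), Cp (4.21), Vtn (1.10), Fgg (1.22) and Itih1 (0.60) were higher. All 6 mesenchyme, all 6 endothelial and all 6 immune markers rose, with mesenchyme sums of 617 to 2177 CPM in Ins1+ and 49.1 to 109 CPM in Ngn3-high libraries, and their part in the result was not tested. Apoe (142, 46.1, 212 and 59.8 CPM in Ins1+ libraries) and Alb lost their calls in 4 of 8 fits with a library left out, Itih1 in 4, Apoa4 in 3, Ahsg in 6 and Fgg in 2, with adjusted p up to 0.248, 0.207, 0.0890, 1.00, 0.253 and 0.103.

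**Figure D5:**
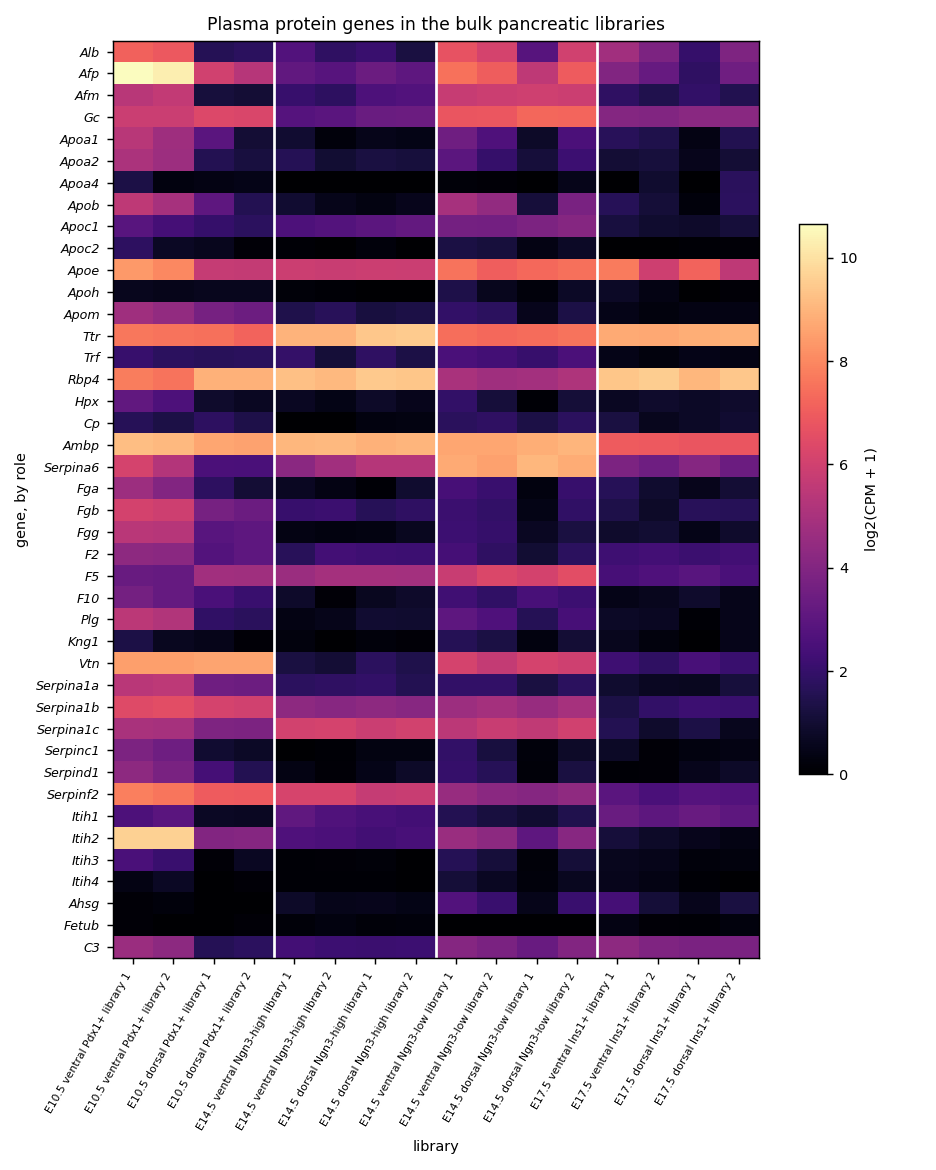
Level of the 42 genes as log2(CPM + 1) in each of the 16 bulk libraries, genes in rows by role and libraries in columns by stage and gate, with white lines between gates. Most liver genes are brightest in the 2 ventral E10.5 libraries, Rbp4 and Ttr are bright in Ngn3-high and Ins1+ libraries, and Gc, Serpina6 and F5 are brightest in Ngn3-low libraries.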

How the data were processed

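Per the submitters' processing notes, reads were handled with TopHat2 2.1.0, Bowtie2 and HTSeq 0.6.0 on mouse build GRCm38/mm10. The authors deposited whole-number read counts per gene for 16 bulk libraries and 447 single cells, and no source used here states whether counting used strand. The 42 genes and all marker lists were chosen with earlier results of these data known. Spike-in rows (92) were left out. Cells of a set were summed, and sets under 3 cells were not tested. Genes passing edgeR's filter (17690 in bulk, 17433 in sets) were fitted with TMM scaling and the quasi-likelihood test (edgeR 4.0.16, R 4.3.3), all bulk groups in 1 fit and the 11 groups of sets in another, with Benjamini-Hochberg adjustment over all tested genes and a threshold of 0.05. Standard errors are of the log2 fold change. DESeq2 1.42.0, other scaling, no filter, sets of at least 5 cells, a replicate block and leaving out each library or set were alternatives. All 42 genes are named at least once. Per comparison, values by library or set are given for up to 6 genes per direction with the smallest adjusted p among those called, or for the 2 with the smallest p where none was called. The 3 highest and 3 lowest genes of each class by liver bud RPKM are given with a share of E10.5 cells. Serpina1a, Serpina1b, Trf, Serpina6, C3, Apoh and Cp are exceptions. Other genes given with values were chosen after their values were seen. Levels per kilobase used the gene lengths deposited beside the counts. The fits were checked on simulated counts with 100 changed genes per fold. Between the sides in bulk E10.5 libraries 96% of 2-fold and 100% of 4-fold changes were found, with 8 false calls. The shares were 5% and 37% for liver bud against ventral Pdx1-high sets, with 0 false calls. For Liv2+ against Liv2- sets they were 1% and 11%, with 0 false calls. Of the E9.5 ventral cells, 25 carry a growth protocol that does not describe embryos, and fits without them are among the alternatives. Python 3.11.15 with pandas 2.3.3, scipy 1.17.1 and matplotlib 3.10.9 was used for cells and figures. A result for 1 gene outside the 42 is not reported here.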

Additional observations from a re-analysis of the deposited data

Results flagged for a closer look

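In the 4 gates with 5 or 6 sets, 137 groups of values were examined for a single set far from the rest, and 25 were found. The cut-off passes about 1 in 20 groups by chance where values are normally distributed, which groups that are mostly at 0 are not. They fell on 7 genes in dorsal Pdx1-high, 8 in dorsal Pdx1-low, 4 in ventral Pdx1-high and 6 in ventral Pdx1-low sets. Several touch genes named above. Dorsal Pdx1-high set 4 had 482 CPM of Ttr, where the median of the other sets was 54.6 CPM, and also 18.5 CPM of Apoa1 and 4.57 CPM of Apoa2, against medians of 0. Dorsal Pdx1-high set 2 had 10.2 CPM of Fgb, set 1 had 1.61 CPM of Apoc2, set 5 had 1.20 CPM of Plg, and set 6 had 0 CPM of Apom, where the others had a median of 12.7 CPM. Dorsal Pdx1-low set 5 was low in Ttr at 1925 CPM (median of the others 3601 CPM) and had 3.35 CPM of F5. Dorsal Pdx1-low set 6 had 7.28 CPM of Afm, 1.09 CPM of Apoc2, 1.81 CPM of Cp, 0.800 CPM of Itih4 and 0.505 CPM of Ahsg, and set 2 had 7.73 CPM of Serpina6, all against medians of 0.

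Ventral Pdx1-low set 5 was low in 3 genes, with 171 CPM of Apoe (median of the others 574 CPM), 0.201 CPM of Fgb (165 CPM) and 0 CPM of Plg (49.0 CPM). Ventral Pdx1-low set 3 had 1965 CPM of Itih2 (913 CPM), set 2 had 3.84 CPM of Apoa4 and set 6 had 2.37 CPM of Apoh, where the other sets had 0 CPM. Ventral Pdx1-high set 1 had 0 CPM of Serpina6 (17.6 CPM), set 5 had 0 CPM of Plg (7.13 CPM), and the other sets had 0 CPM where set 6 had 0.180 CPM of Serpind1 and set 4 had 0.736 CPM of Ahsg.

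The step between the Pdx1-low and Pdx1-high gates differed between the ventral and the dorsal side in 12 genes by the edgeR test of the difference itself (adjusted p from 1.55e-05 for Fgg to 0.0446 for Apoa2). On the log2 scale the differences were 7.59 for Fgg, 6.67 for Serpinc1, 6.36 for Apoa2, 6.02 for Itih2, 5.87 for Serpina6, 5.28 for Apoa1, 4.50 for Apoe, 4.26 for Apoc1, 3.16 for Afp, 1.78 for Ambp, -2.52 for Ttr and -3.14 for Rbp4. Endocrine markers differed between the same gates, as given above, and their part was not tested.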

How the results depend on the processing

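Counts of called genes kept within 1.5 times the main value except as follows. Without a filter on low counts the ventral against dorsal comparison gave 9 genes in Ngn3-low (main 0), 5 in Ngn3-high (main 2) and 3 in Ins1+ libraries (main 0), and RLE scaling gave 1 in Ngn3-high libraries. DESeq2 called 1 gene between the sides in Ngn3-low libraries and in E9.5 sets, 1 between liver bud and Liv2+, 1 between Liv2+ and Liv2- sets, 3 between the sides in Pdx1-high sets, 9 (main 4) in Pdx1+ sets, 18 (main 10) between the ventral gates and 1 for the change of the side difference from E9.5. With 1 library or set left out, the counts spanned 0 to 2 in Ngn3-low (2 without dorsal library 2), 0 to 0 in Ngn3-high libraries, 19 (without liver bud set 2) to 31 between liver bud and ventral Pdx1-high (main 32), 0 to 2 between the sides in Pdx1+ sets, 6 (without Pdx1-high set 1, 5 or 6 or Pdx1-low set 3) to 11 between the ventral gates, 0 to 1 for the change from E9.5 (1 without dorsal E10.5 set 2) and 7 (without ventral Pdx1-low set 3) to 12 for the difference of the gates between sides (main 12). The cause was not tested. Of single calls, 2104 under an alternative kept their direction and their side of the threshold, 267 lost the call and 0 reversed. An adjusted p that DESeq2 left undefined was not counted. With the replicate block the counts were 31, 0, 2 and 0 between the sides in bulk (E10.5, Ngn3-low, Ngn3-high, Ins1+), 33 between the Ngn3 gates, 29 for liver bud against Pdx1-high, 19 between the sides in Pdx1-low, 5 in Pdx1+ sets, 14 and 12 between the dorsal and ventral gates, and 8 for their difference. Same-numbered libraries correlated at 0.2393 to 0.6638 and sets at -0.0927 to 0.1967 after group means were removed, and no label ties the numbers to a shared litter or day. Without the 25 E9.5 ventral cells of another growth protocol, 0 genes were called in each E9.5 comparison. The main fits also called 0 there, so this cannot show whether those cells matter. With 2 sets a side, a count of 0 does not show that the groups were equal.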
